A study of Mus musculus with 6 samples.

Results

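The 107 genes described here belong to families of chromatin-modifying enzymes and remodellers, and were taken by gene symbol from the 24419 genes measured in Thy1-sorted cells of mouse cortex bordering an infarct. The symbols begin with Kmt, Setd, Ezh, Prmt, Kdm, Kat, Hdac, Sirt, Brd, Dnmt, Tet, Smarc or Chd. The rule reads symbols only, but it was set with earlier results of these data known. Of these rows, 105 are protein-coding genes, 1 is the antisense RNA Dnmt3aos and 1 is the pseudogene Smarca5-ps. By symbol they comprise 5 Kmt, 11 Setd, 2 Ezh, 8 Prmt, 18 Kdm, 7 Kat, 11 Hdac, 7 Sirt, 7 Brd, 5 Dnmt, 3 Tet, 14 Smarc and 9 Chd rows. The file gives the older symbol for 2 of them, Setd8 for Kmt5a and Prmt10 for Prmt9.

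The 6 RNA-seq libraries were made from male mice whose middle cerebral artery had been blocked for 60 minutes 4 days earlier. For the 3 libraries labelled cKO, the mice had 2 loxP-flanked Padi4 alleles and Cre drivers at Slc17a7 and Slc32a1, which are active in glutamatergic and GABAergic neurons. For the 3 labelled control, the mice had the same floxed alleles and no listed Cre driver, so all 6 carried the floxed alleles and the stroke. The tissue of all 6 was digested with pronase for 75 minutes, and cells were sorted as Thy1-positive and negative for ACSA2, CD31, CD45 and O4, and the sources used here do not give the age of the mice.

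Chromatin enzymes set how tightly DNA is wrapped on histones and how readily it is read. Writers add methyl or acetyl groups to histones or methyl groups to DNA, erasers remove them, bromodomain proteins bind acetylated histones, and remodellers use ATP to move nucleosomes. Padi4, the targeted gene, encodes a deiminase that converts histone arginines to citrulline and so acts on residues that protein arginine methyltransferases also modify. Neurons do not divide, and they rely on these enzymes to hold their identity and to change transcription with activity or injury.

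The libraries held 10094145 to 24056755 assigned reads, and values below are the deposited CPM values as rescaled per library (scaled CPM), in which 1 read is worth 0.0421 to 0.101. Padi4 did not bear out the labels. It had 0, 3 and 12 reads in cKO-labelled libraries, against 0 in each library labelled control, a log2 difference of 0.32 with an exact two-sided permutation p of 0.4 where 0.1 is the smallest possible. The part of the gene that loxP sites flank is not stated, and every direction below is that of the labels. Sums over 12 oligodendrocyte markers ran from 11403 to 33017 in cKO-labelled libraries and from 22095 to 27632 in control-labelled libraries, while sums over 12 neuronal markers ran from 1549 to 7914 in cKO-labelled libraries and from 2831 to 4323 in control-labelled libraries. Oligodendrocyte markers outweighed neuronal ones in every library, so these sums show no enrichment of neurons. Microglial markers summed to at most 60.0 in any library, with 6 of 12 detected in all 6 libraries and C1qa, Tmem119 and Trem2 at 0 in cKO replicate 2 and control replicate 2. Mural and fibroblast markers summed to 2980, 232 and 2741 in cKO replicates 1 to 3 and 4990, 482 and 704 in control replicates 1 to 3. They exceeded the neuronal sum in replicate 1 of each group. Astrocyte markers summed to 1152 to 2364.5 in cKO-labelled libraries and 868 to 1264 in control-labelled libraries. In such bulk samples, fewer cells of a type and less RNA per cell cannot be told apart.

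No chromatin enzyme differed between the groups past the test threshold, and the set as a whole varied less between libraries than genes at large. Of the 107 rows, 106 reached 1 scaled CPM in 3 or more libraries and were tested. Dnmt3l, an inactive partner of the de novo DNA methyltransferases, was left out at 0.720, 0 and 0.379 in cKO replicates 1 to 3, against 0.184, 0 and 0 in control replicates 1 to 3. At an adjusted p under 0.05, limma called no member (0 higher and 0 lower in cKO-labelled libraries), as for all 14796 tested genes, where 0% were called in each direction. At an unadjusted p under 0.05, limma found 0 members higher and 0 lower, beside 0.338% of all tested genes higher and 0.514% lower. At an unadjusted p under 0.1 there were 4 members (3.77%), Kdm8 higher and Sirt1, Setd8 and Ezh2 lower, beside 3.03% of all tested genes. On whole reads recovered from the values, edgeR and DESeq2 also called 0 members, with 0 at an unadjusted p under 0.05 in either tool, beside 0.493% of all tested genes in edgeR and 1.18% in DESeq2. Of the tested members, 40 had a positive and 66 a negative log2 fold change, so 37.7% were positive, beside 48% of all tested genes. Their median log2 fold change was -0.05, beside -0.02 over all tested genes. Without cKO replicate 3, 59 of 106 were positive and the median was 0.033, and without control replicate 1 it was -0.14.

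The measurements bound the changes more tightly here than for most genes. The 95% interval of the log2 fold change lay between -1 and 1 in 53 of 106 members, beside 17.6% of all tested genes. Among genes with a mean of at least 20, it did so in 53 of 89 members, beside 2597 of all 7891 genes. The median half-width of the interval was 0.79 over members and 1.19 over all tested genes. The members were also more abundant, with a median level of 79.1 against 22.8 over all tested genes, and high values are measured with less counting error. Among genes with a mean of at least 20, the median standard deviation of log2(value + 1) over the 6 libraries was 0.34 for 89 members and 0.46 for all 7891. The members were still more abundant there, with a median level of 94.6 against 58.5, so abundance was not matched. For the other 53 of the 106 members the interval did not lie between -1 and 1. A difference of 1 on the log2 scale lies within the interval there in at least 1 direction.

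**Figure D1:**
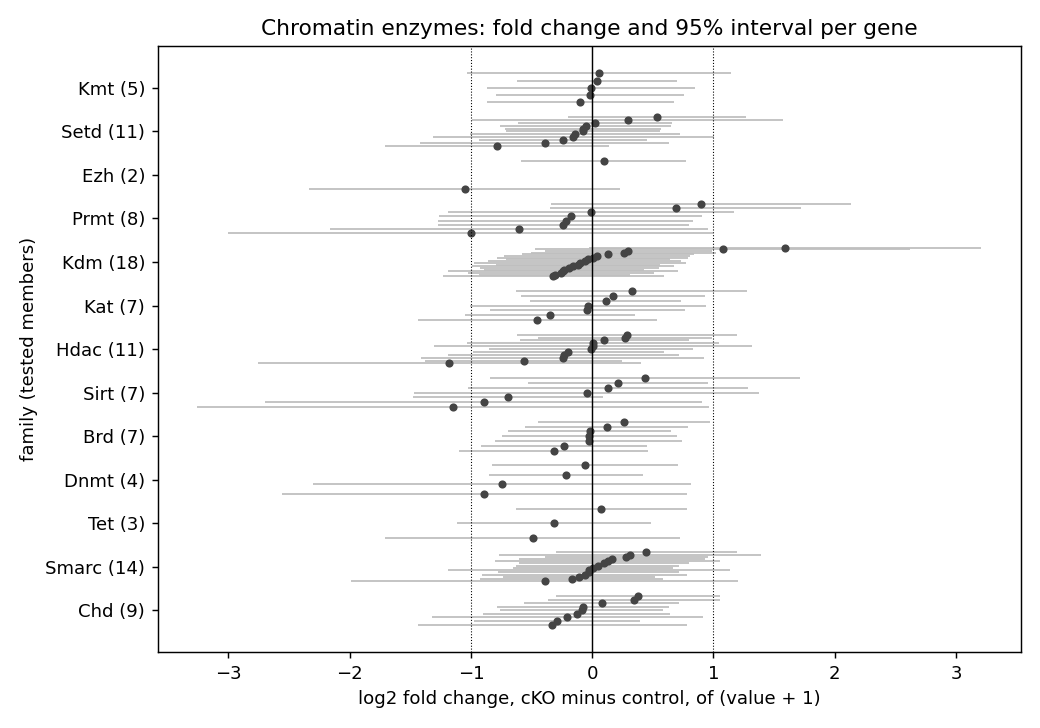
Log2 fold change of value + 1 (labelled cKO minus labelled control) for the 106 tested members, by family down the page. Points are limma estimates, grey bars 95% intervals and dotted lines a fold of 2 on that scale, and every interval spans 0.

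In 6 members the 2 groups of libraries did not overlap, which is 5.66% of those tested, beside 4.7% of all tested genes. Kdm8, Prmt6 and Prmt10 were higher in every library labelled cKO (2.83% of members, beside 2.45% of all tested genes), and Sirt1, Kdm7a and Dnmt1 were lower (2.83%, beside 2.26%). These shares are close to the background, and none of the 6 passed limma's test. Kdm8, which encodes a JmjC-domain hydroxylase of the demethylase family, was at 6.91, 14.8 and 5.47 in cKO replicates 1 to 3, against 3.78, 0.368 and 3.56 in control replicates 1 to 3. All values were low, and control replicate 2, at 0.368, rested on 5 reads. Its log2 fold change of 1.59 (SE 0.73) was the largest of the members and had the smallest unadjusted p, 0.0537 (limma, adjusted p = 0.9996). Without control replicate 2 it was 1.00. Prmt6, which methylates histone H3 at arginine 2, was at 20.4, 71.8 and 17.97 in cKO-labelled libraries and at 15.1, 16.8 and 14.9 in control-labelled libraries. A single library, cKO replicate 2, carried most of that difference, and without it the log2 fold change was 0.28, against 0.90 (SE 0.56) with it. Prmt10, now named Prmt9, makes symmetric dimethylarginine on a splicing factor, and its values of 27.3, 27.0 and 23.8 in cKO-labelled libraries stood against 22.6, 9.27 and 18.4 in control-labelled libraries (log2 fold change 0.69, SE 0.47). The lowest value was again that of control replicate 2, without which the log2 fold change was 0.33.

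On the lower side, Sirt1, a nuclear NAD-dependent deacetylase, was at 46.4, 36.3 and 31.6 in cKO-labelled libraries, against 50.3, 56.1 and 82.5 in control-labelled libraries (log2 fold change -0.70, SE 0.35, unadjusted p = 0.0766 in limma, adjusted p = 0.9996). The groups came closest at replicate 1, and the highest value was in control replicate 3. Kdm7a, a demethylase of histone H3 lysines 9 and 27, was at 90.6, 107 and 97.4 in cKO-labelled libraries, against 114, 138 and 115 in control-labelled libraries. Dnmt1, which copies DNA methylation after replication, was at 77.5, 84.8 and 91.0 in cKO-labelled libraries, against 93.9, 91.3 and 111 in control-labelled libraries. Kdm7a averaged 98.2 ± 8.05 in cKO-labelled libraries and 122 ± 13.6 in control-labelled libraries (SD, n = 3 each), with a log2 fold change of -0.31 (SE 0.28). Dnmt1 averaged 84.5 ± 6.76 in cKO-labelled libraries and 98.6 ± 10.5 in control-labelled libraries (SD, n = 3 each), and its log2 fold change was -0.22 (SE 0.29) and -0.13 without control replicate 3. In mm10 the plus-strand gene Kdm8 spans chr7:125444676-125462269 and the minus-strand gene Sirt1 spans chr10:63319005-63381704. Prmt6 spans chr3:110246109-110250998 (minus), Prmt10 chr8:77549397-77581338 (plus), Kdm7a chr6:39136623-39206789 (minus) and Dnmt1 chr9:20907209-20959888 (minus). Exons of Sirt1, Kdm7a and Prmt6 overlap antisense transcripts in GENCODE M21 (Gm16145, 4930599N23Rik and C130013H08Rik), and the sources do not say whether counting used strand, so reads of the pairs cannot be told apart.

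The bases before a RefSeq start of 5 of these 6 genes are shown because they are the members whose groups did not overlap and for which the RefSeq table lists a single start. Dnmt1 has 3 listed starts. Each sequence is the 250 bases before the start (RefSeq, GRCm38.p6), 5′ to 3′ on the gene's strand, with motif matches in capitals. They are chr7:125444370-125444619 (plus) for Kdm8, chr3:110251000-110251249 (minus) for Prmt6, chr8:77549147-77549396 (plus) for Prmt10, chr10:63339036-63339285 (minus) for Sirt1 and chr6:39206774-39207023 (minus) for Kdm7a. The Sirt1 window lies inside the GENCODE span given above, which reaches farther upstream than the RefSeq start, and the Kdm7a window overlaps the edge of its span. The Kdm8 window ends at 125444619, before its GENCODE span begins at 125444676. The bases just after that window matched no GENCODE transcript of Kdm8.
Kdm8: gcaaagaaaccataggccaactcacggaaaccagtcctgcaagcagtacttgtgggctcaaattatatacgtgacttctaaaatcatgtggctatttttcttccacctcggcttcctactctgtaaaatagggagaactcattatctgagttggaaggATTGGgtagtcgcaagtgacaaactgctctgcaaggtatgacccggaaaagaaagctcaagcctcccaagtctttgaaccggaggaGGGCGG
Prmt6: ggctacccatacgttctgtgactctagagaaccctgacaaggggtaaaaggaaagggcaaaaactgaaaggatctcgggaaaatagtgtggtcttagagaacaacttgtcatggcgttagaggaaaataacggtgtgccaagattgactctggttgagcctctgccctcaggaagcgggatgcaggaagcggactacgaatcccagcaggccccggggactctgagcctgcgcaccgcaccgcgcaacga
Prmt10: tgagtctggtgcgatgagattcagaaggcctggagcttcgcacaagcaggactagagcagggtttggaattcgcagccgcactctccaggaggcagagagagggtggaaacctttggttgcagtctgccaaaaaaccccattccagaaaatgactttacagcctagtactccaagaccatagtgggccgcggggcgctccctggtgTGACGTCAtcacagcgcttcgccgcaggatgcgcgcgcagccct
Sirt1: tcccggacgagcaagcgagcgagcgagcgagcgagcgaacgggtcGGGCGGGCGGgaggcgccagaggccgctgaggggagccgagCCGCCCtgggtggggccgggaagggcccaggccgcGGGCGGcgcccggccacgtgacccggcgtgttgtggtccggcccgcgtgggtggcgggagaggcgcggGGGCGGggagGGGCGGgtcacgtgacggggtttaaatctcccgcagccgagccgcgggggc
Kdm7a: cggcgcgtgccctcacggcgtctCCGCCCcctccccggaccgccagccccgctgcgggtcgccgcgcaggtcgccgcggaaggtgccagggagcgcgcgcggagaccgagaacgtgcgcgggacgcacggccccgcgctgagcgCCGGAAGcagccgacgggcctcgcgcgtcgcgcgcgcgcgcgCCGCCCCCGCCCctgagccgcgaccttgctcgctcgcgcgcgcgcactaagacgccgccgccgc

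The motifs searched, on both strands, were the GC box (GGGCGG), the ETS motif (CCGGAAG), the CCAAT box (CCAAT), the NRF1 motif (CGCATGCG), the YY1 motif (AAGATGGC), the cAMP response element (TGACGTCA) and the TATA motif (TATAAA). Sirt1 held 6 GC boxes, of which 2 overlap each other, Kdm7a held 3 GC boxes and 1 ETS motif, Kdm8 held 1 GC box and 1 CCAAT box, Prmt10 held 1 cAMP response element, and Prmt6 held 0 matches. GC content was 79.2% for Sirt1 and 82.0% for Kdm7a, against 46.8% for Kdm8, 54.0% for Prmt6, and 57.6% for Prmt10. Nothing is drawn from 5 sequences. Over the whole set, 87 members matched the table by symbol or current symbol, with 120 promoters. Of these, 71.7% had a GC content of at least 50% and an observed-to-expected CpG ratio of at least 0.6, beside 31.0% of all 32851 RefSeq promoters, noncoding genes included. A GC box stood in 63.3% of members' promoters and 32.7% of all, an ETS motif in 12.5% and 6.91%, an NRF1 motif in 3.33% and 1.55%, and a CCAAT box in 35.0% and 33.8%. The TATA motif was found in 4.17% of members' promoters and 12.4% of all, the YY1 motif in 0.833% and 1.56%, and the cAMP response element in 0.833% and 1.55%. These shares describe the letters of the window only.

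**Figure D2:**
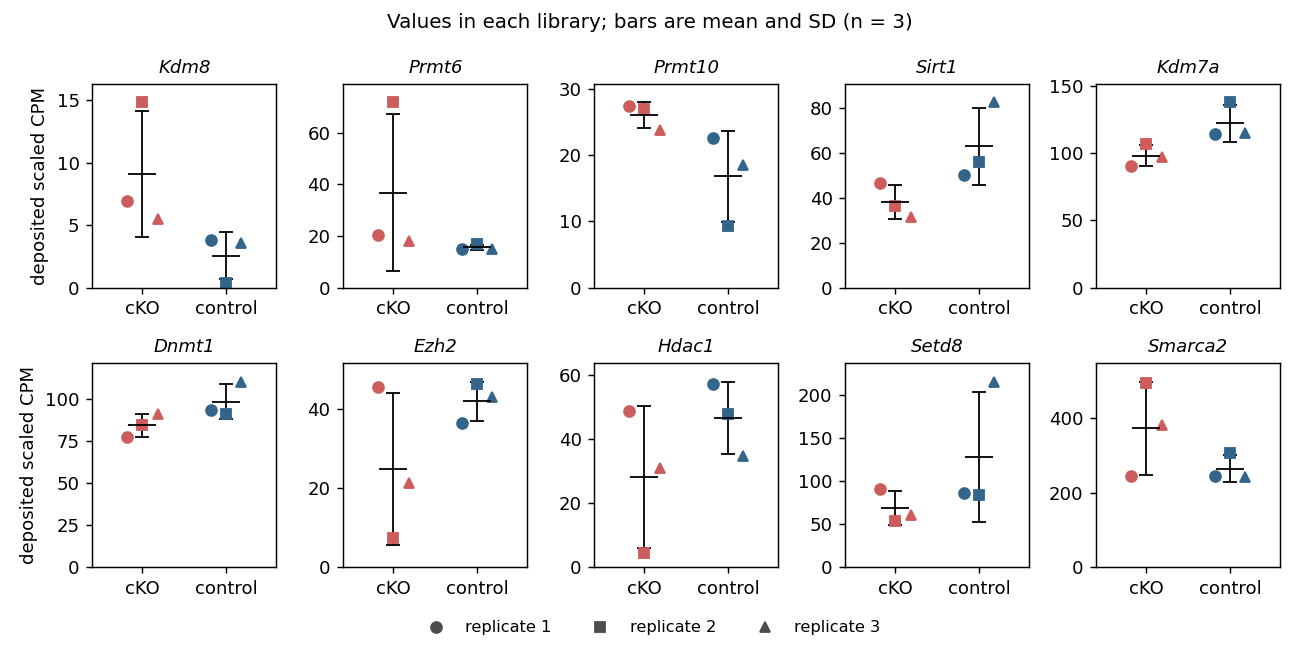
Deposited scaled CPM of 10 members in each library, labelled cKO at the left and labelled control at the right of each panel, with mean and SD bars (n = 3) and marker shapes for replicates 1 to 3. Groups do not overlap in Kdm8, Prmt6, Prmt10, Sirt1, Kdm7a and Dnmt1, while Ezh2 and Hdac1 are spread mainly by cKO replicate 2 and Setd8 by control replicate 3.

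The 5 Kmt members include the MLL enzymes of Kmt2a to Kmt2d, which methylate histone H3 lysine 4 at promoters and enhancers. Of the 5, 2 were positive and 3 negative, with a median log2 fold change of -0.01. Kmt2a was at 374, 709.8 and 413 in cKO-labelled libraries and 407, 504 and 550.5 in control-labelled libraries. Kmt2d was at 381, 735 and 392 in cKO-labelled libraries and 331, 614 and 551 in control-labelled libraries. The groups overlapped in all 5 Kmt genes, and cKO replicate 2 was the highest library for each. Kmt2b ranged most, with 78.3, 285 and 93.4 in cKO-labelled libraries and 80.4, 161 and 144 in control-labelled libraries. Per kilobase of exon, Kmt2e had the highest mean of the family over the 6 libraries, 51.3, and Kmt2b the lowest, 16.6 scaled CPM per kb. Lengths are the union of GENCODE exons, so levels per kb assume even coverage along transcripts.

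Of the 11 Setd members, 3 were positive and 8 negative, with a median of -0.08. Setd2, the enzyme of trimethylated histone H3 lysine 36, was at 304, 275 and 229.7 in cKO-labelled libraries and 275, 232 and 289 in control-labelled libraries, with a 95% interval of -0.61 to 0.66 on the log2 scale. Setd8, which monomethylates histone H4 lysine 20, was at 90.4, 53.5 and 61.0 in cKO-labelled libraries, against 85.4, 83.7 and 215 in control-labelled libraries (log2 fold change -0.79, SE 0.42). Control replicate 3 alone stood high, and the other 5 libraries lay between 53.5 and 90.4. Without that library the log2 fold change of Setd8 was -0.34. Setd7, a methyltransferase of histone H3 lysine 4 and of non-histone proteins, had 191, 299 and 198 in cKO-labelled libraries and 209.5, 121 and 146 in control-labelled libraries (log2 fold change 0.53, SE 0.33), with control replicate 1 above cKO replicates 1 and 3. Without cKO replicate 2 it was 0.33. Setdb1, which methylates histone H3 lysine 9 at silenced repeats, was at 54.2, 71.9 and 51.4 in cKO-labelled libraries, against 60.4, 53.6 and 69.3 in control-labelled libraries. Setd4, Setd6 and Setdb2 were the lowest of the family, at most 26.3 in any library.

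The 2 catalytic subunits of Polycomb repressive complex 2 differed in how much they varied between libraries. Ezh1, the form typical of non-dividing cells, was among the steadiest members at 55.5, 55.6 and 59.3 in cKO-labelled libraries and 59.3, 50.8 and 49.8 in control-labelled libraries. Ezh2, the form typical of dividing cells and progenitors, was at 45.5, 7.47 and 21.3 in cKO-labelled libraries, against 36.6, 46.3 and 43.2 in control-labelled libraries (log2 fold change -1.05, SE 0.58, unadjusted p = 0.0973 in limma). The values of cKO replicates 2 and 3 were below every control value, while that of cKO replicate 1 lay within the control range. Without cKO replicate 1 the log2 fold change was -1.64, and without cKO replicate 2 it was -0.41, neither past the adjusted threshold. Sums over 8 cell cycle markers were 463, 125 and 255 in cKO replicates 1 to 3 and 487, 61.7 and 395 in control replicates 1 to 3. Cdk1 and Birc5 were at 0 in both libraries numbered 2. The sum was lowest in control replicate 2, where Ezh2 was at its highest, 46.3. Their part in the Ezh2 values was not tested. GENCODE M21 places the antisense gene Gm26625 over exons of Ezh2, and 29 of the 107 rows have such an antisense overlap.

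The protein arginine methyltransferases were 2 positive and 6 negative, with a median of -0.20, and had the widest spread of all 13 families, with a median standard deviation of 0.57 on the log2 scale. Prmt1, the main source of asymmetric dimethylarginine, was at 24.5, 1.82 and 44.4 in cKO-labelled libraries and 39.4, 16.1 and 37.1 in control-labelled libraries. The libraries numbered 2 were the lowest of each group. Its log2 fold change of -1.003 (SE 0.90) turned to 0.20 without cKO replicate 2, where Prmt1 rested on 18 reads. Prmt5, which makes symmetric dimethylarginine on histones and splicing proteins, was at 27.3, 14.8 and 49.7 in cKO-labelled libraries, against 35.6, 23.3 and 36.1 in control-labelled libraries. Prmt8, a membrane-bound enzyme largely restricted to the brain, was at 3.60, 15.3 and 29.8 in cKO-labelled libraries and 12.6, 28.5 and 19.1 in control-labelled libraries. It was lowest in cKO replicate 1, which also had the lowest neuronal marker sum (1549), and highest in cKO replicate 3, which had the highest (7914). The part of cell composition in these values was not tested.

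Of the 18 lysine demethylases, 7 were positive and 11 negative (median -0.08), and 12 had an interval within 1 of 0. Kdm1a, a flavin-dependent demethylase of the CoREST complex, was at 88.3, 69.7 and 75.6 in cKO-labelled libraries and 97.7, 69.7 and 73.3 in control-labelled libraries, with an interval of -0.71 to 0.64. Kdm6b, an inducible demethylase of histone H3 lysine 27, was at 144, 118 and 70.1 in cKO-labelled libraries, against 104, 136 and 146 in control-labelled libraries. Its X-linked relative Kdm6a was at 115, 72.4 and 64.2 in cKO-labelled libraries, against 108, 96.6 and 76.6 in control-labelled libraries. The groups overlapped in all 3 genes. The X-linked Kdm5c was at 103, 126 and 89.8 in cKO-labelled libraries and 116, 111 and 149 in control-labelled libraries. Its Y-linked homolog Kdm5d was at 52.3, 86.7 and 39.9 in cKO-labelled libraries and 65.5, 76.6 and 50.3 in control-labelled libraries, so the Y-linked gene was read in all 6 libraries, which are labelled male. Kdm4d, an autosomal demethylase of histone H3 lysine 9 known for its expression in testis, was the lowest of the family at 1.92, 3.33 and 2.65 in cKO-labelled libraries and 2.30, 0.0736 and 0.389 in control-labelled libraries. Control replicate 2 held 1 read of Kdm4d, below the floor of 3 reads, so its log2 fold change of 1.08 (SE 0.70) depends on the added 1, and it was 0.74 to 1.55 with single libraries left out. Kdm3b, at 94.7, 139 and 82.6 in cKO-labelled libraries, against 86.6, 84.4 and 79.9 in control-labelled libraries, was highest in cKO replicate 2.

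Histone acetyltransferases of the Kat family showed 3 positive and 4 negative members, with a median of -0.03. Kat7, which acetylates histone H3 lysine 14 and histone H4, varied least, at 90.1, 109 and 104 in cKO-labelled libraries and 91.3, 89.5 and 99.1 in control-labelled libraries. Kat6a, of the MOZ complex, was at 301, 252 and 164 in cKO-labelled libraries, against 307, 283 and 294 in control-labelled libraries (log2 fold change -0.35, SE 0.32), the lowest value being that of cKO replicate 3. The log2 fold change was -0.54 without cKO replicate 1 and -0.097 without cKO replicate 3. Kat2a, a coactivator acetyltransferase of the SAGA complex, was at 36.3, 101 and 68.8 in cKO-labelled libraries and 44.2, 94.1 and 65.3 in control-labelled libraries, lowest in replicate 1 of each group. Its paralog Kat2b was at 142, 76.6 and 47.3 in cKO-labelled libraries and 120.3, 154 and 71.8 in control-labelled libraries, and was well above Kat2a per kb in both libraries numbered 1.

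The 11 zinc-dependent histone deacetylases comprised 5 positive and 6 negative members with a median of -0.01. Of class I, the nuclear core of repressor complexes, Hdac1 was at 48.6, 4.55 and 30.9 in cKO-labelled libraries, against 57.2, 47.8 and 34.8 in control-labelled libraries (log2 fold change -1.18, SE 0.71). cKO replicate 2 held 45 reads of Hdac1, and without that library the log2 fold change was -0.23. Hdac2, its close paralog and the more prominent form in mature neurons, was at 76.0, 78.8 and 104 in cKO-labelled libraries and 92.6, 56.5 and 66.9 in control-labelled libraries, with no drop in cKO replicate 2. Hdac3, the enzyme of the NCoR complex, was at 50.1, 40.2 and 47.2 in cKO-labelled libraries, against 39.7, 49.1 and 73.9 in control-labelled libraries. Among class IIa members, which shuttle between cytoplasm and nucleus with neuronal activity, Hdac5 was at 121, 98.6 and 79.0 in cKO-labelled libraries and 101, 133 and 231 in control-labelled libraries (log2 fold change -0.57, SE 0.36), the highest value again being control replicate 3. Without that library it was -0.23. Hdac4 was at 50.1, 107 and 70.8 in cKO-labelled libraries and 55.7, 40.8 and 91.1 in control-labelled libraries. Hdac9 was at 26.4, 55.4 and 21.3 in cKO-labelled libraries and 33.6, 21.3 and 42.9 in control-labelled libraries. The groups overlapped for both. Hdac11, the only class IV member, was nearly level at 50.8, 48.9 and 60.2 in cKO-labelled libraries and 50.1, 48.4 and 50.003 in control-labelled libraries, with an interval of -0.59 to 0.79.

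The NAD-dependent sirtuins included the member with the highest level per kb of all 107. Sirt2, a deacetylase abundant in myelinating oligodendrocytes, averaged 140.1 scaled CPM per kb, and was at 340.3, 442 and 242 in cKO-labelled libraries and 248, 365 and 258 in control-labelled libraries. The other 6 sirtuins averaged 2.45 to 11.4 per kb. Family counts were 3 positive and 4 negative. Sirt5, a mitochondrial desuccinylase, was at 8.92, 0 and 4.71 in cKO-labelled libraries and 4.52, 21.2 and 4.06 in control-labelled libraries. Its count of 0 reads in cKO replicate 2 allows up to 0.303 scaled CPM, counting error only. Sirt6, a nuclear enzyme of telomere and DNA repair chromatin, was at 8.20, 0.808 and 13.3 in cKO-labelled libraries and 6.91, 17.4 and 9.501 in control-labelled libraries. Sirt3, the main mitochondrial deacetylase, was at 5.76, 13.7 and 14.3 in cKO-labelled libraries and 5.72, 22.2 and 9.72 in control-labelled libraries. Both groups overlapped in these 3 genes, and control replicate 2 was the highest library for each. Leaving out both libraries numbered 2, a choice made after the values were seen, turned the log2 fold change of Sirt5 from negative to 0.51 and that of Sirt6 to 0.33.

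Bromodomain readers were the steadiest family, with a median standard deviation of 0.25 on the log2 scale over the 6 libraries and 6 of 7 intervals within 1 of 0. Brd2, a reader of acetylated histones, was at 250.2, 245 and 242 in cKO-labelled libraries and 229, 249 and 503 in control-labelled libraries, with 5 libraries between 229 and 250.2 and control replicate 3 apart at 503. Brd8, a subunit of the TIP60 acetyltransferase complex, was at 73.6, 101 and 69.2 in cKO-labelled libraries, against 69.8, 53.8 and 78.2 in control-labelled libraries (log2 fold change 0.26, SE 0.32). Without cKO replicate 2 that log2 fold change was 0.10, and without control replicate 2 it was 0.11.

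Among genes of DNA methylation, all 4 tested Dnmt rows, the antisense RNA Dnmt3aos included, had a negative log2 fold change, with none past the threshold. Dnmt3a, the de novo methyltransferase of neurons, was at 125, 209.8 and 98.8 in cKO-labelled libraries and 121, 171 and 142 in control-labelled libraries, with an interval of -0.83 to 0.70. Its log2 fold change of -0.06 was 0.17 without cKO replicate 3. Dnmt3b, active mainly in embryonic cells, was at 1.92, 0.303 and 2.90 in cKO-labelled libraries, against 2.77, 5.08 and 2.06 in control-labelled libraries. The antisense RNA Dnmt3aos was at 2.35, 0.101 and 0.968 in cKO-labelled libraries, against 1.01, 5.88 and 2.33 in control-labelled libraries. In cKO replicate 2 both were at or under that library's floor of 0.303 (3 reads). The Tet dioxygenases oxidise methylcytosine and begin its removal. Tet3, abundant in neurons, was at 124, 218 and 135 in cKO-labelled libraries and 123, 161 and 157 in control-labelled libraries. Tet2 was at 169, 202 and 123 in cKO-labelled libraries and 127, 267 and 238 in control-labelled libraries. Tet1 split the libraries without regard to the labels, at 82.8, 20.9 and 46.8 in cKO-labelled libraries and 84.0, 86.3 and 31.8 in control-labelled libraries. Cytosine methylation itself was not measured here.

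Of the 14 Smarc rows, which include genes of SWI/SNF and ISWI remodelling subunits, 8 were positive and 6 negative (median 0.03), and 9 intervals lay within 1 of 0. Smarca4, a core ATPase of the BAF complex, was at 238, 276 and 240.2 in cKO-labelled libraries and 246, 255 and 316 in control-labelled libraries. The alternative ATPase Smarca2 was at 244, 494 and 382 in cKO-labelled libraries, against 244, 306 and 243 in control-labelled libraries (log2 fold change 0.45, SE 0.34). cKO replicate 1 lay within the control range and the other 2 lay above it. The log2 fold change was 0.72 without cKO replicate 1 and 0.22 without cKO replicate 2. The scaffold subunit gene Smarcc1 was at 156, 85.9 and 156 in cKO-labelled libraries and 167, 113 and 158 in control-labelled libraries. Its partner Smarcc2 was at 222, 353 and 282 in cKO-labelled libraries and 223, 209 and 263 in control-labelled libraries. The scaffolds overlapped between the groups. Smarcb1, a core subunit and tumour suppressor, was at 49.8, 13.7 and 53.9 in cKO-labelled libraries, against 42.2, 30.4 and 30.9 in control-labelled libraries, lowest in cKO replicate 2. Smarce1, the HMG-box subunit, was at 79.5, 44.5 and 51.7 in cKO-labelled libraries, against 76.9, 39.9 and 68.1 in control-labelled libraries. The groups overlapped for both. Of the subunits that distinguish BAF assemblies, Smarcd1 was at 98.8, 129.7 and 108 in cKO-labelled libraries and 90.9, 134 and 112 in control-labelled libraries. Smarcd2 was at 21.9, 63.8 and 21.7 in cKO-labelled libraries and 21.9, 27.2 and 26.3 in control-labelled libraries. Smarcd3, known from heart and neural development, was at 24.9, 29.6 and 28.4 in cKO-labelled libraries and 18.4, 37.3 and 23.1 in control-labelled libraries. Among these 3 genes a single library stood well apart, cKO replicate 2 in Smarcd2. The ISWI ATPase gene Smarca1 was at 40.7, 51.1 and 72.4 in cKO-labelled libraries and 48.9, 50.3 and 43.3 in control-labelled libraries. The more widely expressed ISWI gene Smarca5 was at 233, 206 and 161 in cKO-labelled libraries and 238, 159.6 and 184 in control-labelled libraries. The pseudogene Smarca5-ps had at most 3.32 scaled CPM, and how reads shared with Smarca5 were counted is unknown.

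The Chd remodellers had 3 positive and 6 negative members (median -0.09). Chd4, the main ATPase of the NuRD complex, was at 376, 378 and 319 in cKO-labelled libraries and 405, 275 and 478 in control-labelled libraries. Chd3, of the same complex, was at 158, 258 and 225 in cKO-labelled libraries and 184, 160.4 and 142 in control-labelled libraries (log2 fold change 0.38, SE 0.30). For Chd3, cKO replicates 2 and 3 lay above every control-labelled library, and the log2 fold change was 0.58 without cKO replicate 1 and 0.23 without cKO replicate 2. Chd5, its neuronal relative, was at 58.1, 201 and 192 in cKO-labelled libraries and 93.7, 169 and 218 in control-labelled libraries, and was lowest in replicate 1 of each group. Chd8, a regulator linked to autism, was at 212, 256 and 203 in cKO-labelled libraries, against 192, 255 and 191 in control-labelled libraries, with an interval of -0.56 to 0.72. Chd7, which acts in oligodendrocyte development, was at 374, 179 and 78.5 in cKO-labelled libraries and 281, 174 and 215 in control-labelled libraries. The highest value, in cKO replicate 1, came with the highest oligodendrocyte marker sum (33017) and the lowest, in cKO replicate 3, with the lowest sum (11403). Sirt2, described above as abundant in myelinating oligodendrocytes, was also lowest in cKO replicate 3 (242). Its highest value (442) was in cKO replicate 2, where the marker sum was 21080, and it was 248 in control replicate 1, where the sum was 27632. The part of oligodendrocyte RNA in Chd7 and Sirt2 was not tested. Chd9 was at 235, 299 and 169 in cKO-labelled libraries, against 222, 168 and 156 in control-labelled libraries (log2 fold change 0.34, SE 0.32). It was 0.15 without cKO replicate 2 and 0.56 without cKO replicate 3.

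Ratios between related genes within a library, taken per kb, do not change with the scaling of that library. Ezh2 stood to Ezh1 at 1.78, 0.292 and 0.781 in cKO replicates 1 to 3 and at 1.34, 1.98 and 1.88 in control replicates 1 to 3. The ratio was below 1 in cKO replicates 2 and 3 and above 1 in the other 4 libraries. Hdac1 to Hdac2 followed the same split, at 1.33, 0.120 and 0.620 in cKO-labelled libraries and 1.28, 1.76 and 1.08 in control-labelled libraries. Smarca2 to Smarca4 was at 0.896, 1.56 and 1.39 in cKO-labelled libraries and 0.866, 1.05 and 0.673 in control-labelled libraries, again with cKO replicates 2 and 3 apart from the rest. In the same libraries Kat2b to Kat2a was low, at 2.56, 0.496 and 0.450 in cKO-labelled libraries and 1.78, 1.07 and 0.720 in control-labelled libraries. Hdac4 to Hdac5 was at 0.287, 0.754 and 0.623 in cKO-labelled libraries and 0.384, 0.214 and 0.273 in control-labelled libraries. Chd3 to Chd4 was highest in cKO replicates 2 and 3, at 0.632 and 0.655, against 0.274 to 0.541 in the other 4 libraries. Tet2 to Tet3 was lowest in cKO replicates 2 and 3, at 1.183 and 1.16, against 1.318 to 2.115 in the other 4 libraries. The pairs given next did not follow that split. Smarcc2 to Smarcc1 was highest in cKO replicate 2, at 5.19, but cKO replicate 3, at 2.28, lay below control replicate 2, at 2.34. Smarcd2 to Smarcd1 was highest in cKO replicate 2, at 0.538, and lowest in cKO replicate 3, at 0.219. Tet1 to Tet3 was at 0.0784 and 0.284 in cKO replicates 2 and 3, with control replicate 3 between them at 0.166. Dnmt3a to Dnmt1 was at 1.02, 1.57 and 0.690 in cKO-labelled libraries and 0.822, 1.19 and 0.817 in control-labelled libraries, with cKO replicate 2 highest and cKO replicate 3 lowest. Prmt1 to Prmt5 was at 1.06, 0.145 and 1.06 in cKO-labelled libraries and 1.31, 0.817 and 1.22 in control-labelled libraries, low in cKO replicate 2 alone. Smarcd1 to Smarcd3 ranged from 2.12 to 2.90 and Kdm5d to Kdm5c from 0.262 to 0.538 over all 6 libraries, the second about as widely as Smarca2 to Smarca4. Chd5 to Chd4 was lowest in the libraries numbered 1, at 0.109 in cKO and 0.164 in control, and 0.322 to 0.437 in the other 4. Actl6b and Actl6a, the neuronal and the progenitor actin-related subunit of BAF, are companion genes and not members. Their ratio was likewise lowest in the libraries numbered 1, at 0.279 in cKO and 0.296 in control, and 0.857 to 2.02 in the others. The pairs were chosen after the values were seen, and no test was made of them. Taken as single genes, 22 of 105 members had cKO replicates 2 and 3 both above or both below every control-labelled library. Over all tested genes that share was 22.4%, so the split was not particular to the members. No such share was worked out for ratios.

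**Figure D3:**
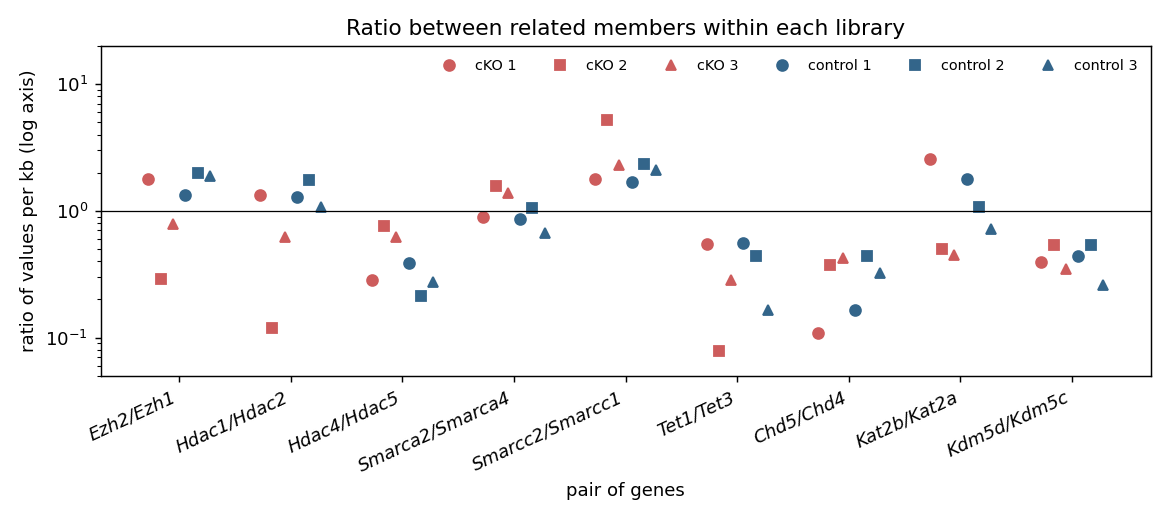
Ratio of scaled CPM per kb between 9 pairs of related members within each library (log axis), labelled cKO in red left of labelled control in blue, with marker shapes for replicates 1 to 3. In cKO replicates 2 and 3, Ezh2/Ezh1 and Hdac1/Hdac2 lie below 1, while Kdm5d/Kdm5c lies between 0.262 and 0.538 in all 6 libraries.

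Single libraries stood apart from the rest of their group. The library labelled cKO replicate 2, which had the fewest reads (10094145) and fewest detected genes (14042), held the highest of the 6 values for 40 of 106 members (37.7%, beside 23.8% of all tested genes) and the lowest for 19 (17.9%, beside 34.3%). It lay more than 2-fold from the median of the other 5 libraries in 21 members, 9 above and 12 below. The other 5 libraries did so in 2 to 11 members each. Over all tested genes it was 39.8% in cKO replicate 2, beside 19.8% of members. The members are more abundant than genes at large. Among all tested genes with a mean of at least 20, it was 22.5% in that library. The members below were Ezh2, Prmt1, Prmt3, Prmt5, Hdac1, Sirt5, Sirt6, Dnmt3aos, Dnmt3b, Tet1, Smarca5-ps and Smarcb1. Those above were Kmt2b, Setd4, Prmt6, Kdm8, Hdac7, Hdac9, Sirt4, Smarca2 and Smarcd2. cKO replicate 3 held the lowest value for 28 members (26.4%, beside 12.5% of all tested genes). Together the 107 rows took 1.13, 1.35 and 0.994% of assigned reads in cKO replicates 1 to 3 and 1.12, 1.25 and 1.21% in control replicates 1 to 3.

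**Figure D4:**
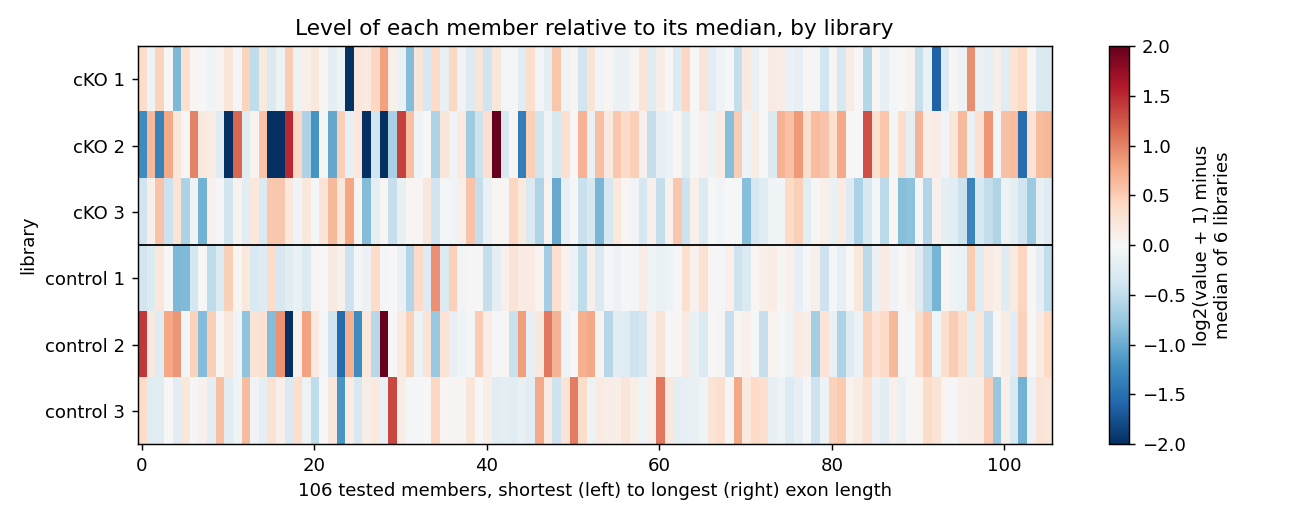
Log2(value + 1) of each tested member minus its median over the 6 libraries (colour, from -2 in blue to 2 in red, with values beyond drawn at those limits), with the 3 libraries labelled cKO above the line and the 3 labelled control below, and members ordered by exon length. The row of cKO replicate 2 holds more members over 2-fold from the median of the other 5 libraries than any other row, 9 above and 12 below.

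The deviation of cKO replicate 2 differed by exon length. Of 42 members with exons of 6 kb or more, 32 were above the median of the other 5 libraries, with a median log2 difference of 0.32. Of 30 members under 3 kb, 14 were above, with a median of -0.16. The same order held over all tested genes with a known length, where the medians in cKO replicate 2 were 0.05 for long and -0.34 for short genes. cKO replicate 3 ran the other way, with medians of -0.24 for long and 0.06 for short members. The members are long genes, with a median exon length of 4997 bases against 3368 over all tested genes, and 39.6% against 16.8% reach 6 kb. The sources used here give no RNA quality values, and the part of transcript length in the differences between libraries was not tested.

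**Figure D5:**
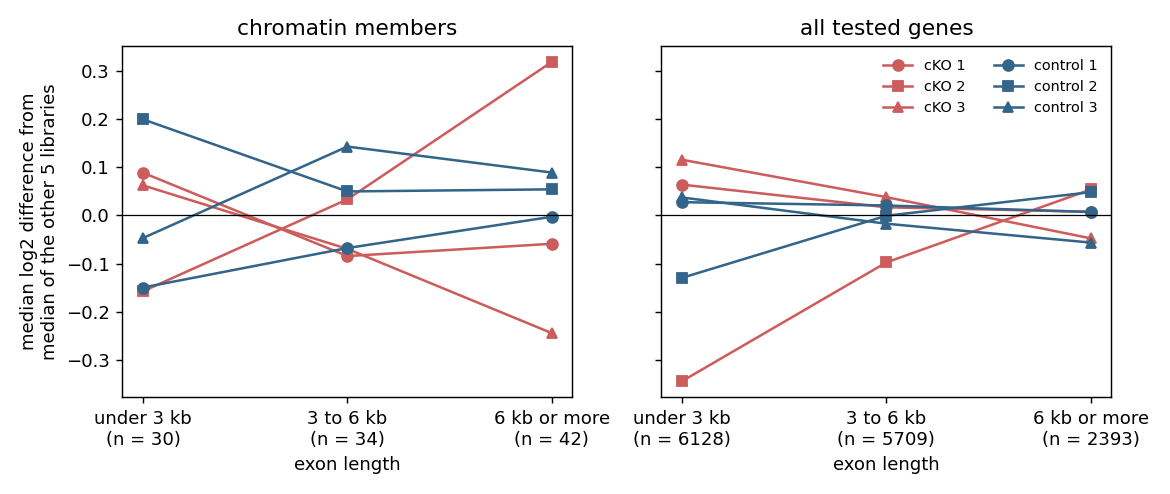
Median log2 difference of each library from the median of the other 5, by exon length in 3 bands, for the tested members (left panel) and all tested genes with a length (right panel). Labelled cKO is red and labelled control blue, with marker shapes for replicates 1 to 3, and cKO replicate 2 rises with length in both panels while cKO replicate 3 falls.

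The 2 libraries most alike in these genes carried different labels. Between cKO replicate 1 and control replicate 1 the median absolute log2 difference over the 106 members was 0.146, against 0.311 to 0.539 for the other 14 pairs. Their counts over genes differed by a chi-square of 26.0 per degree of freedom, against 73.3 to 286 for the other pairs, so the 2 columns are not copies of each other. The statistic covers counting noise only and does not say whether they came from separate animals. Pairs with the same label had values of 0.311 to 0.539 and pairs with different labels, this pair aside, 0.336 to 0.528.

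The partners of these enzymes, listed by complex, likewise held no call. Of 101 tested subunits and related enzymes of Polycomb, NuRD, CoREST, COMPASS, BAF and other complexes, limma called none at an adjusted p under 0.05 (0 higher, 0 lower) or at an unadjusted p under 0.05 (0 and 0), with 42 positive, 59 negative and a median of -0.05. Groups did not overlap in 2, the corepressor gene Ncor1 (higher in cKO-labelled libraries) and the arginine demethylase and lysyl hydroxylase gene Jmjd6 (lower), which is 1.98%, beside 4.7% of all tested genes. Ncor1 was named after its values were seen. The smallest unadjusted p on the higher side was that of Rnf2, the ubiquitin ligase of Polycomb complex 1, at 45.4, 84.4 and 74.6 in cKO-labelled libraries and 51.1, 20.1 and 51.4 in control-labelled libraries (log2 fold change 0.79, SE 0.44). It was followed by Carm1, an arginine methyltransferase, Phf8, a demethylase, and Hat1, a histone acetyltransferase, with log2 fold changes of 0.54, 0.49 and 0.59. On the lower side stood Gadd45a, a stress-induced factor of DNA demethylation, at 20.5, 1.41 and 6.52 in cKO-labelled libraries, against 22.5, 10.7 and 24.6 in control-labelled libraries (log2 fold change -1.39, SE 0.79). Ss18, Jmjd6 and Phf2 followed, with log2 fold changes of -0.69, -0.77 and -0.47.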

How the data were processed

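RNA of sorted cells was sequenced in 3 libraries labelled cKO and 3 labelled control. Per the submitters' processing notes, Trimmomatic, HISAT2, featureCounts and edgeR were used with mm10, with versions, annotation and strand setting not given in the sources used here. The deposited signal is 1 table of CPM values that the authors rescaled per library, with column totals of 961962 to 1027958. Every value was a whole multiple of 1 step per library (within 0.001), which gave the reads recovered here. Nothing in the labels says whether replicates came from separate animals, and the p-values then cover only the spread between these samples.

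Limma 3.58.1 with a mean-variance trend (R 4.3.3) was fitted to log2(value + 1) of the 14796 of 24419 genes that reached 1 in 3 or more libraries, with Benjamini-Hochberg adjustment over all of them and a threshold of 0.05. Fold changes are cKO minus control on that scale and understate changes of low genes. The fit was tried on simulated counts drawn independently per gene, where the condition set was the right sign of large known changes. That does not check the intervals or calls in these libraries. Alternatives were edgeR 4.0.16 quasi-likelihood and DESeq2 1.42.0 on recovered reads, other pseudocounts, filters, scalings, array weights, a replicate block and leaving out each library. Limma's intervals rest on the spread between libraries, and floors (3 reads) cover counting error only. Positions, exon lengths and overlaps came from GENCODE M21 and promoters from RefSeq GRCm38.p6. Members and lists were chosen with earlier results of these data known. Named are the highest member of each family, the 12 members per direction with the smallest p, members whose groups did not overlap with a mean of at least 2, a fixed list of best known members, family examples given with their family's counts, and the 4 companion genes per direction with the smallest p. All pairs of genes in ratios were chosen after their values were seen. Values of 1 member are not reported here.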

Additional observations from a re-analysis of the deposited data

How the results depend on the processing

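Under all 17 alternatives run, the count of members called at an adjusted p under 0.05 was 0, and over all tested genes it was 0 except in DESeq2, which called 1 gene, Ifit3. The members' median log2 fold change was -0.05, and leaving out 1 library gave -0.14 (without control replicate 1) to 0.033 (without cKO replicate 3). Of 421 values for 25 leading members, 4 turned sign: Prmt1 was 0.20 without cKO replicate 2 (-1.81 to 0.20 over the single libraries left out), and without both libraries numbered 2, an alternative added after seeing the data, Brd8 was -0.049, Sirt5 0.51 and Sirt6 0.33. The cause was not tested. At an unadjusted p under 0.05, Kdm8 passed with a pseudocount of 5 and after quantile normalization (beside 0.973% and 0.946% of all tested genes), Sirt1 and Setd8 passed with array weights (beside 2.01%), and Smarca2, Chd7, Hdac1, Setd8 and Ezh2 passed without cKO replicate 1, where 6.73% of all tested genes did and the lowest adjusted p of a member was 0.732 in limma. Deviations of same-numbered libraries from their group means correlated at 0.491, 0.301 and 0.0338, so the rule that all exceed 0.1 was not met. Differently numbered libraries were not compared in this way, so these values do not decide whether the numbers pair the samples. With the replicate block the members' median stayed at -0.05, with 0 calls. Depth limits the low members: Kdm8, Kdm4d, Sirt5, Dnmt3b and Smarca5-ps rest on few reads in some libraries, and with 3 libraries per group the tests bound 53 of 106 members to within 1 on the log2 scale.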
